A study of Mus musculus with 8 samples.

Results

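The genes described here are the Hox genes of the 4 mouse Hox clusters, taken as every gene whose platform symbol is Hoxa, Hoxb, Hoxc or Hoxd followed by a number. This gave 37 of the 19935 genes measured, with 10 genes in cluster A and 9 each in clusters B, C and D. Each was read by 1 probe set, the group of array probes whose values are summarised for a gene. Hoxb8 was not analysed here because its probe set also named another gene in the annotation used.

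R1 mouse embryonic stem cells, an established line kept in pluripotent conditions per the growth protocol, were transfected with siRNA, and total RNA was taken 48 hours later. There were 3 arrays after control siRNA, 3 after siRNA 1 and 2 after siRNA 2, both directed against CnAb1, a splice variant of the calcineurin catalytic subunit gene Ppp3cb. The labels name no genotype change, and all groups share the line, the transfection and the time. The sample titles use the word differentiation, which the growth protocol does not, and nothing in the labels says whether replicates came from separate cultures, so the p-values reflect only how far these samples spread, and that spread may be technical. Values are log2 array signals, so a difference of 1 is a doubling.

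Hox genes encode homeodomain transcription factors that give cells of the embryo their position along the head-to-tail axis. Within a cluster, genes of low paralog number are switched on earlier and further forward than genes of high number, so gene order mirrors the order of expression. In pluripotent cells the clusters are known to be held silent by Polycomb complexes, which act at CpG-rich promoters, and to be open to activation by retinoic acid, Wnt and Cdx factors when the cells differentiate.

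The promoter sequences of Hoxa3, Hoxa13 and Hoxd4 show how widely Hox start regions differ in the CpG content on which Polycomb recruitment is known to depend. The 250 bases before each start are printed 5′ to 3′ from RefSeq (GRCm38.p6). Capitals mark CpG dinucleotides for Hoxa3 (chr6:52213068-52213317, minus strand, 18 CpG) and Hoxa13 (chr6:52260881-52261130, minus strand, 35 CpG). For Hoxd4 (chr2:74721728-74721977, plus strand, 3 CpG) they mark the letters TTTATGG and the reverse complement of TATAAA.
Hoxa3: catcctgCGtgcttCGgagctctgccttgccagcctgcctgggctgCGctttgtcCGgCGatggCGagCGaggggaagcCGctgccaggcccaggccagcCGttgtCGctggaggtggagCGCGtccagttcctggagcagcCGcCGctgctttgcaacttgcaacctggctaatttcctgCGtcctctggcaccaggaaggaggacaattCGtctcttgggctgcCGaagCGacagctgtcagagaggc
Hoxa13: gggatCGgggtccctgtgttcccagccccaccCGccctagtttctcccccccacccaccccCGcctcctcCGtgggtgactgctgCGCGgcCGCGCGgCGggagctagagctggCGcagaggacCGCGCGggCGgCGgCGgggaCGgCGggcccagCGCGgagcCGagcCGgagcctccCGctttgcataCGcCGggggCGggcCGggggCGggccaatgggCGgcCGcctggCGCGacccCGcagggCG
Hoxd4: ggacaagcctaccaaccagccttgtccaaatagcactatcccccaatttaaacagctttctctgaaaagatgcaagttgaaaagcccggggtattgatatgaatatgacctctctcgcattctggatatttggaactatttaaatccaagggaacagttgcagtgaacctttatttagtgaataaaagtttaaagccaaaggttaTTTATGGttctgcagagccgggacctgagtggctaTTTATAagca
The RefSeq promoter table matched 21 of the 37 genes with 23 windows of 300 bases, from 250 before to 50 after a start. These windows held a median of 15 CpG, from 4 to 45, against a median of 7 over all 32851 windows of that length, whose quartiles were 3 and 20. Of the 23 Hox windows 19 lay above the median of all windows, and the median GC content was 58% against 52.7%. The exceptions were Hoxd4, Hoxa9 and 1 of the Hoxd11 windows, each with 4 CpG, and Hoxd8 with 6. The Hoxa3 window lay between those of Hoxa6 and Hoxa7, out of the paralog order.

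Letter matches for 4 motifs were searched on both strands of the same windows. TATAAA, the core of the TATA box, was in 3 Hox windows (Hoxa10, Hoxd13 and Hoxd4) and in 13.6% of all windows. TTTATGG, a sequence bound by Cdx and posterior Hox factors, was in the Hoxd4 window and in 2.75% of all windows. There it lay from base -45 to -39 before the start and from base 21 to 27 after it, while the TATAAA match lay on the opposite strand from -10 to -5. TGATTGAT, a joint site of Hox and Pbx proteins, was in the windows of Hoxa2 and Hoxd11 and in 0.746% of all windows. The letters AGGTCA, any 5 bases and AGGTCA again, a direct repeat to which retinoic acid receptors bind, was in 0 Hox windows and in 0.00913% of all windows. These are matches of letters, and no binding was measured.

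The clusters also encode microRNAs that are known to repress Hox transcripts, and their mature sequences are given because the array carried probe sets for their genes. From RefSeq (GRCm38.p6), 5′ to 3′, with the seed (bases 2 to 8) in capitals, they are the pair miR-10a (chr11:96317186-96317208, plus strand, cluster B) and miR-10b (chr2:74726074-74726096, plus strand, cluster D), which share the seed ACCCUGU, and the pair miR-196a (chr11:96265187-96265208 and chr15:102973365-102973386, plus strand) and miR-196b (chr6:52230129-52230150, minus strand), which share AGGUAGU. The sequence from miR-615 (chr15:103014969-103014990, plus strand), in cluster C, has a seed of its own.
miR-10a-5p: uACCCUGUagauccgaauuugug
miR-10b-5p: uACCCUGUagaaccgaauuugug
miR-196a-5p: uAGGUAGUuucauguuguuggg
miR-196b-5p: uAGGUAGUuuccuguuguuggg
miR-615-3p: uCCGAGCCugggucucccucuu

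The arrays were alike in scale. Over the 19935 genes the lower quartile ran from 7.07 to 7.25, the median from 8.35 to 8.39 and the upper quartile from 10.04 to 10.18 across the 8 arrays, and on the control arrays the mean quartiles were 7.11, 8.36 and 10.13. Markers of the labelled cell type were high: 9 of 10 pluripotency genes lay above the upper quartile on the control arrays, with Pou5f1 at 13.21, Nanog at 13.08 and Sox2 at 12.67. Of 11 measured genes of early differentiated cells, Eomes, at 10.27, was the one above the upper quartile. The median of these 11 was 8.75, with 2 below the median gene and 0 below the lower quartile. Ppp3cb read 10.70, 10.55 and 10.64 on the control arrays, 10.52, 10.68 and 11.09 on the siRNA 1 arrays and 11.07 and 11.16 on the siRNA 2 arrays. Its difference for the average of both siRNAs was 0.31 ± 0.11 (SE, limma unadjusted p = 0.0196, adjusted p = 0.769), that is not lower. It was 0.13 ± 0.12 (SE) for siRNA 1 and 0.49 ± 0.14 (SE, limma unadjusted p = 0.0057, adjusted p = 0.794) for siRNA 2, whose arrays were both above all controls. Its single probe set does not read the CnAb1 variant apart from the other transcripts, so the knockdown could not be checked here.

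On the control arrays the Hox genes lay low. Of the 37 genes 34 (91.9%) were below the median gene, 14 of them below the lower quartile, 3 were between the median and the upper quartile, and 0 were above it. The median Hox level was 7.30, and the genes ran from 5.61 (Hoxc4) to 8.58 (Hoxb9), or from percentile 5.3 to percentile 53.8 of all genes, with a median percentile of 28.7. Olfactory receptor genes, a family of sensory receptors used here as a background of genes that stem cells are not known to use, had a lower median of 5.82, and 1021 of 1027 were below the median gene. Probe sets differ in how strongly they respond, and the deposited table holds no detection call, so a level places a probe set on the array and does not rank transcripts or show that one is present or absent.

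**Figure D1:**
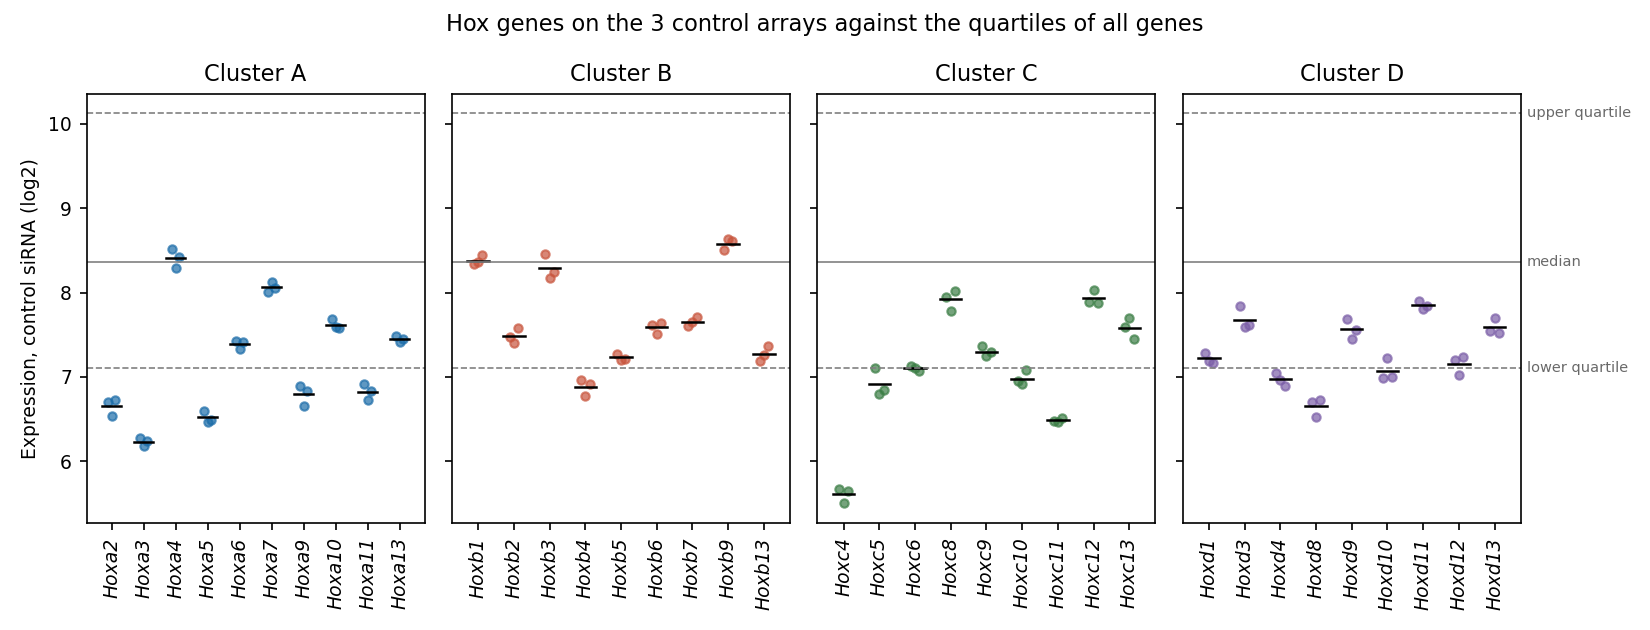
Log2 level of each Hox gene (x axis, by cluster and paralog number) on the 3 control arrays (points) with their mean (black bar). Grey lines are the quartiles of all 19935 genes on these arrays (7.11, 8.36 and 10.13), and 34 of the 37 means lie below the median line.

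The 3 genes above the median gene were Hoxa4, Hoxb1 and Hoxb9, with control means of 8.41, 8.38 and 8.58. Hoxb9, which patterns the thoracic skeleton, read 8.51, 8.64 and 8.61 on the control arrays, 8.51, 8.64 and 8.57 on the siRNA 1 arrays and 8.63 and 8.45 on the siRNA 2 arrays, in the order of the replicate numbers. It was the 1 Hox gene above the median on all 8 arrays, and its groups overlapped. Hoxa4, a gene of the neck vertebrae, read 8.52, 8.29 and 8.42 on the control arrays, 8.26, 8.59 and 8.61 with siRNA 1 and 8.54 and 8.48 with siRNA 2. Hoxb1, which specifies a segment of the hindbrain and is among the first Hox genes to respond to retinoic acid, read 8.34, 8.36 and 8.44, then 8.18, 8.36 and 8.33, and then 8.37 and 8.40 in the same order of groups. Hoxa4, Hoxb1 and Hoxb3 crossed the median from array to array, and the other 33 genes were below it on all 8 arrays, 10 of them below the lower quartile on all 8.

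By cluster, the median control level was 7.11 in cluster A, 7.59 in B, 7.10 in C and 7.22 in D. Cluster A had 5 of 10 genes below the lower quartile and cluster C 5 of 9, while D had 3 of 9 and B 1 of 9. The lowest gene of cluster A was Hoxa3, which patterns the third pharyngeal arch and the thymus, at 6.23 ± 0.05 (SD, n = 3), and the highest was Hoxa4 at 8.41 ± 0.11. In cluster B the extremes were Hoxb4, at 6.88 ± 0.10 and known for its role in blood stem cells, and Hoxb9 at 8.58 ± 0.07. Hoxb4 read 6.96, 6.77 and 6.91 on the control arrays, 6.96, 7.01 and 6.81 with siRNA 1 and 6.97 and 6.94 with siRNA 2, and it was below the lower quartile on every array.

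Cluster C held the lowest Hox gene, Hoxc4, at 5.61 ± 0.09 (SD, n = 3). It read 5.67, 5.5 and 5.65 on the control arrays, 5.56, 5.81 and 5.76 with siRNA 1 and 5.79 and 5.59 with siRNA 2, so the groups overlapped. The highest of cluster C was Hoxc12 at 7.93 ± 0.08, with 7.89, 8.03 and 7.88, then 7.95, 7.95 and 7.88, then 7.85 on both siRNA 2 arrays. In cluster D the lowest was Hoxd8 at 6.65 ± 0.11 and the highest Hoxd11, a gene of the forearm and kidney, at 7.85 ± 0.05. The Hoxd11 values were 7.90, 7.80 and 7.84 on the control arrays, 7.86, 7.92 and 7.84 with siRNA 1 and 7.85 and 7.94 with siRNA 2.

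By paralog number there was no step from one end of the clusters to the other. The 7 anterior genes (numbers 1 to 3) had a median control level of 7.49, the 14 central genes (4 to 8) of 7.16 and the 16 posterior genes (9 to 13) of 7.38. Below the median gene were 6 of 7 anterior, 13 of 14 central and 15 of 16 posterior genes. Paralog group 13, which patterns digits, hindgut and tail, was the most even of the groups with 4 members, with Hoxa13, Hoxb13, Hoxc13 and Hoxd13 between 7.27 and 7.59. Group 4 was the widest, from Hoxc4 at 5.61 to Hoxa4 at 8.41, with Hoxb4 at 6.88 and Hoxd4 at 6.97 between them. Group 9 ran from Hoxa9 at 6.80 through Hoxc9 at 7.30 and Hoxd9 at 7.57 to Hoxb9 at 8.58, and group 11 from Hoxc11 at 6.49 through Hoxa11 at 6.82 to Hoxd11 at 7.85.

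Most of the genes around the clusters stood higher, though often not the nearest one. Among the 3 nearest measured protein-coding genes on each side, by RefSeq gene order, 13 of 24 were above the upper quartile on the control arrays, 5 were between the median and the upper quartile and 6 between the lower quartile and the median. Their median was 10.44 and their range 7.16 to 13.33. The bright flanks included ATP synthase genes Atp5g1 (13.33) near cluster B, Atp5g2 (13.22) near C and Atp5g3 (12.82) near D. They also included the chromatin genes Cbx3 (12.01), Cbx1 (11.21) and Cbx5 (12.44) near A, B and C. None of these was the nearest measured gene on its side. The 6 flanks below the median gene included the homeobox genes Evx1 (7.73) and Evx2 (8.20), which adjoin the posterior ends of clusters A and D. Skap1 (7.22) and Ttll6 (7.84) adjoin the anterior and posterior ends of B, and Smug1 (7.16) the anterior end of C. Those genes were the nearest measured ones on their sides, and Nfe2 (7.42) lay further out from C. The Hox genes thus made up low stretches of 9 or 10 measured genes. At both ends of B and at 1 end each of A, C and D the nearest measured gene was low as well. Brighter genes lay mostly further out, a description of position that was not tested.

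**Figure D2:**
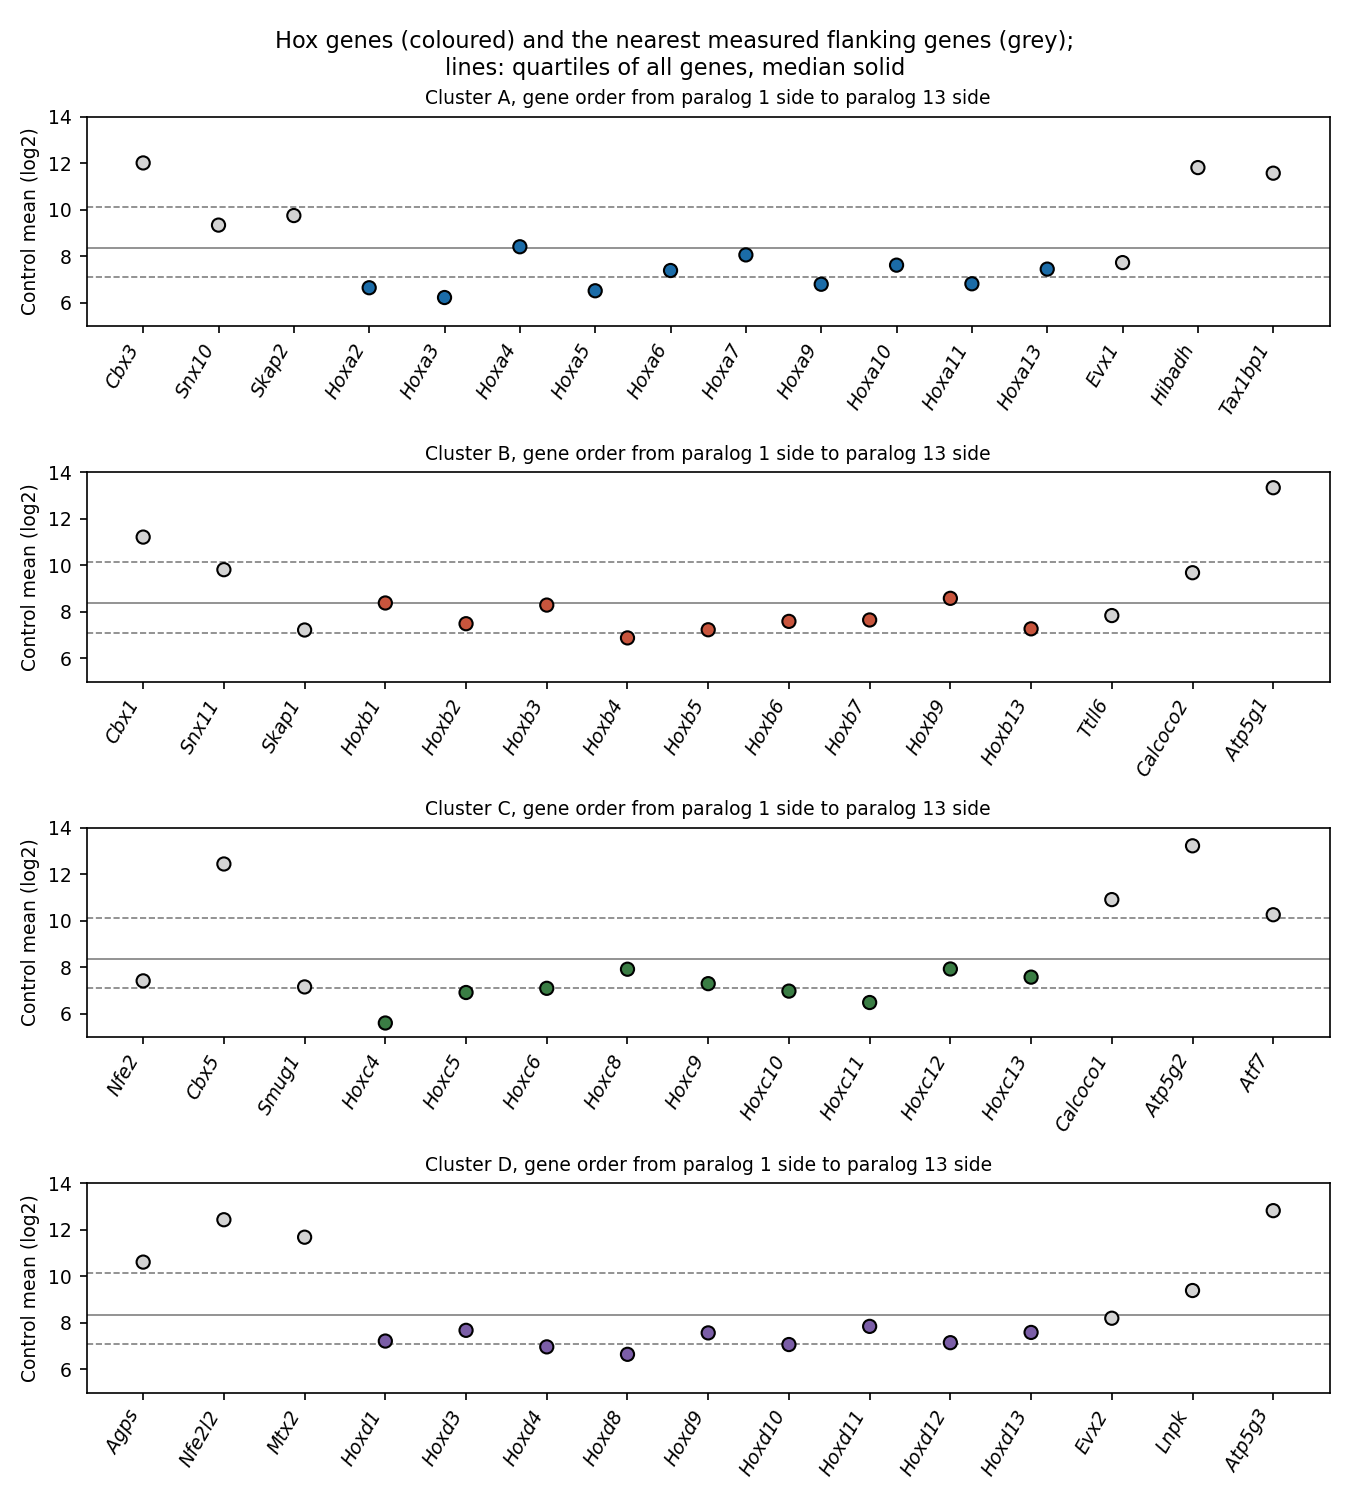
Mean control level (log2, y axis) of the Hox genes (coloured) and of the 3 nearest measured protein-coding genes on each side (grey), in gene order from the paralog 1 side. Lines are the quartiles of all genes (7.11, 8.36 and 10.13), and 13 of the 24 flanking genes but 0 of the 37 Hox genes lie above the upper one.

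Noncoding transcripts of the clusters were low as well. Of 17 such genes listed 10 were measured, and 9 were below the median gene on the control arrays, 7 of them below the lower quartile. The genes of miR-10a (5.05) and miR-10b (4.97), which share a seed, and those of miR-196a (Mir196a-1 at 6.0, Mir196a-2 at 6.02) and miR-196b (6.86), which share the other, were all below the lower quartile. Mir615, at 8.51, was the exception. It read 8.58, 8.40 and 8.55 on the control arrays, 8.54, 8.95 and 8.72 with siRNA 1 and 8.83 and 8.48 with siRNA 2. The long transcripts Hottip (6.26) and Haglr (6.06), of clusters A and D, were below the lower quartile too. Which part of a transcript these probe sets read is not given in the sources used here, so the values are not levels of mature microRNA.

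The genes that act on the clusters were set beside them from lists of known regulators. Of 17 measured Polycomb genes 12 lay above the upper quartile, with a median of 11.87, among them Ezh2 (12.78), Suz12 (12.31) and Jarid2 (13.22). Of 9 genes of Trithorax-type activators, which oppose Polycomb, 8 lay above the upper quartile. The cofactors with which Hox proteins bind DNA were spread, with Pbx2 (10.60) and Pbx3 (10.54) above the upper quartile and Meis1 (7.24) below the median. Of the 8 genes of the ParaHox and Evx homeobox families 7 were below the median gene, among them Cdx2 (7.78) and Cdx4 (6.12), and Cdx1 stood at 8.44.

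The main comparison asked whether the Hox genes differed after siRNA against CnAb1, taken as the average of the siRNA 1 and siRNA 2 means minus the control mean. By limma 0 of the 37 Hox genes passed an adjusted p of 0.05, and the share of all genes that did was 0%. The smallest adjusted p of a Hox gene was 0.769. Unadjusted p-values under 0.05 belonged to 3 Hox genes, Hoxa3, Hoxd8 and Hoxb13, all higher with siRNA, and to 0 lower ones. Over all genes the share was 3.28% higher, 3.03% lower and 6.31% in either direction. That count rested on single arrays. It became 10 when siRNA 1 replicate 1 was dropped and 0 when siRNA 2 replicate 1 was dropped. Dropping control replicate 2, siRNA 1 replicate 3 or siRNA 2 replicate 2 left 1. For 0 Hox genes did all 5 siRNA arrays lie above all 3 controls (2.49% of all genes) and for 0 did they all lie below (2.25%).

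The differences were small and their intervals narrow. They ran from -0.16 (Hoxc13) to 0.16 (Hoxd10), with standard errors from 0.05 to 0.10. The 95% interval lay within a 1.5-fold change either way for all 37 genes, as it did for 19893 of all 19935 genes. The genes differed little among arrays of any kind: the range over all 8 arrays ran from 0.12 (Hoxa7) to 0.51 (Hoxd13), with a median of 0.30 against 0.26 over all genes. The SD within groups had a median of 0.098 for the Hox genes and 0.085 for all genes.

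Of the 37 differences 31 were above 0 and 6 below, with a median of 0.057, where all genes had a median of 0.011 and 56.1% above 0. Other genes of low level leaned the same way. Among the 9932 genes other than Hox whose mean lay below the median of means, 72.6% were higher with siRNA, with a median difference of 0.040, and among the 1027 olfactory receptor genes 72.5% were, with a median of 0.034. The number of Hox genes above 0 moved with the scaling and the arrays: 26 after a repeated quantile normalization, 21 with each array's lower quartile added as a covariate and 25 without control replicate 2. The median was 0.031 without control replicate 2 and 0.102 without control replicate 1. Over the 17 alternatives that kept all 37 genes it ran from 21 to 33, and the median difference stayed above 0, from 0.015 to 0.102.

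**Figure D3:**
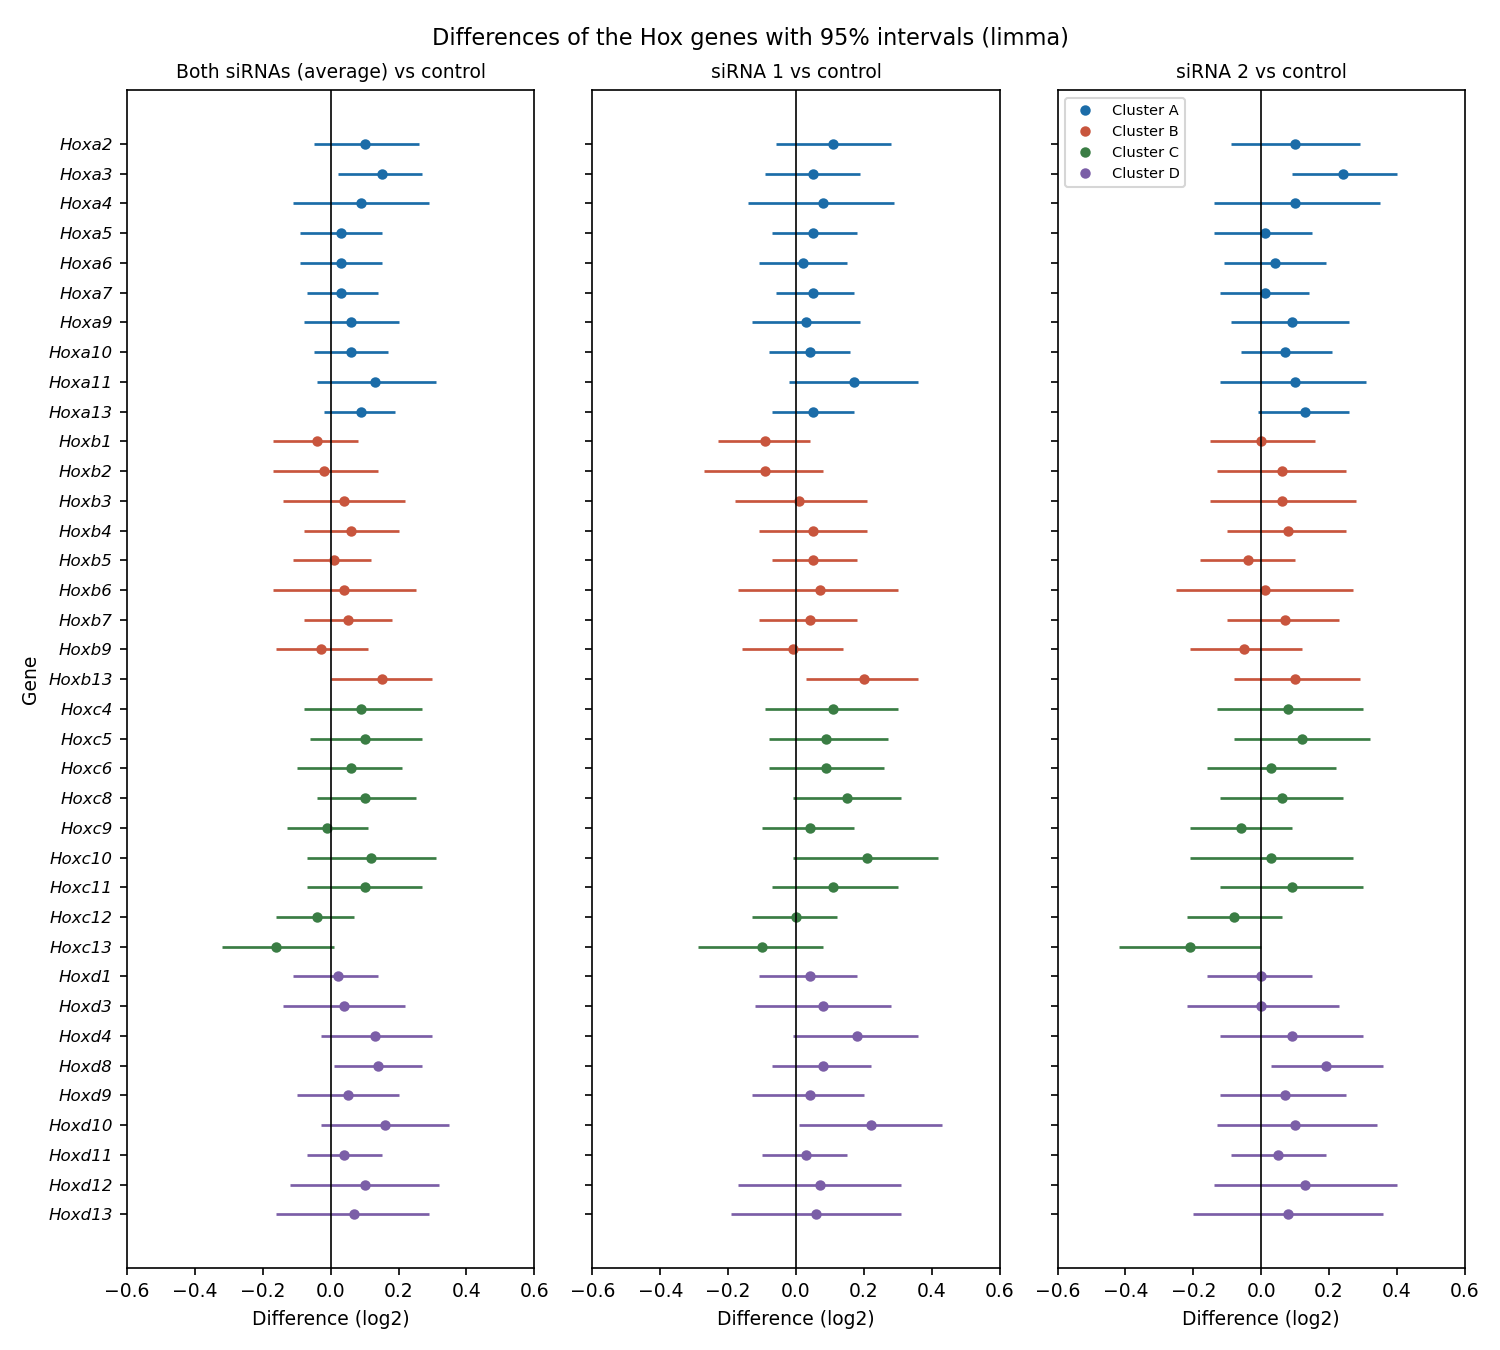
Difference from control (log2, x axis) of each Hox gene (y axis) with its 95% interval from limma, for the average of both siRNAs, siRNA 1 and siRNA 2. Points lie mostly right of 0 (31 of 37, 32 of 37 and 31 of 37, but 21 of 37 in the first comparison once each array's lower quartile entered the fit), and 0 genes pass an adjusted p of 0.05.

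By cluster, all 10 genes of A and all 9 of D were above 0 for the average of both siRNAs, with medians of 0.073 and 0.066, and 6 of 9 were in both B and C, with medians of 0.039 and 0.095. With that covariate 8 genes of A, 3 of B, 6 of C and 4 of D were above 0, and the medians of B and D turned to -0.032 and -0.01. All 14 central genes were above 0, 5 of 7 anterior and 12 of 16 posterior genes. With that covariate 10 central, 2 anterior and 9 posterior genes were. No difference between clusters or classes was tested.

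The Hox genes also differed from array to array within groups. The median deviation of the Hox genes from their own means was 0.077 on siRNA 1 replicate 2, where 32 of 37 genes were above their mean and 17 had their highest value. It was -0.089 on control replicate 2, where 17 genes had their lowest value, and -0.060 on siRNA 1 replicate 1, where 7 did. Between them stood 0.002 and -0.034 on the other control arrays, 0.030 on siRNA 1 replicate 3, and 0.046 and -0.015 on the siRNA 2 arrays. Replicates 1 and 2 of siRNA 1 therefore lay on opposite sides of the means although they share a group. The other genes of low level had deviations of 0.083 on siRNA 1 replicate 2, -0.053 on control replicate 2 and -0.045 on siRNA 1 replicate 1, and genes at or above the median of means had -0.047, 0.009 and 0.044 on the same arrays. The lower quartile of all genes was 7.25 on siRNA 1 replicate 2, 7.08 on control replicate 2 and 7.07 on siRNA 1 replicate 1. Beyond the covariate fit above, the part of these array differences in the Hox values was not tested.

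**Figure D4:**
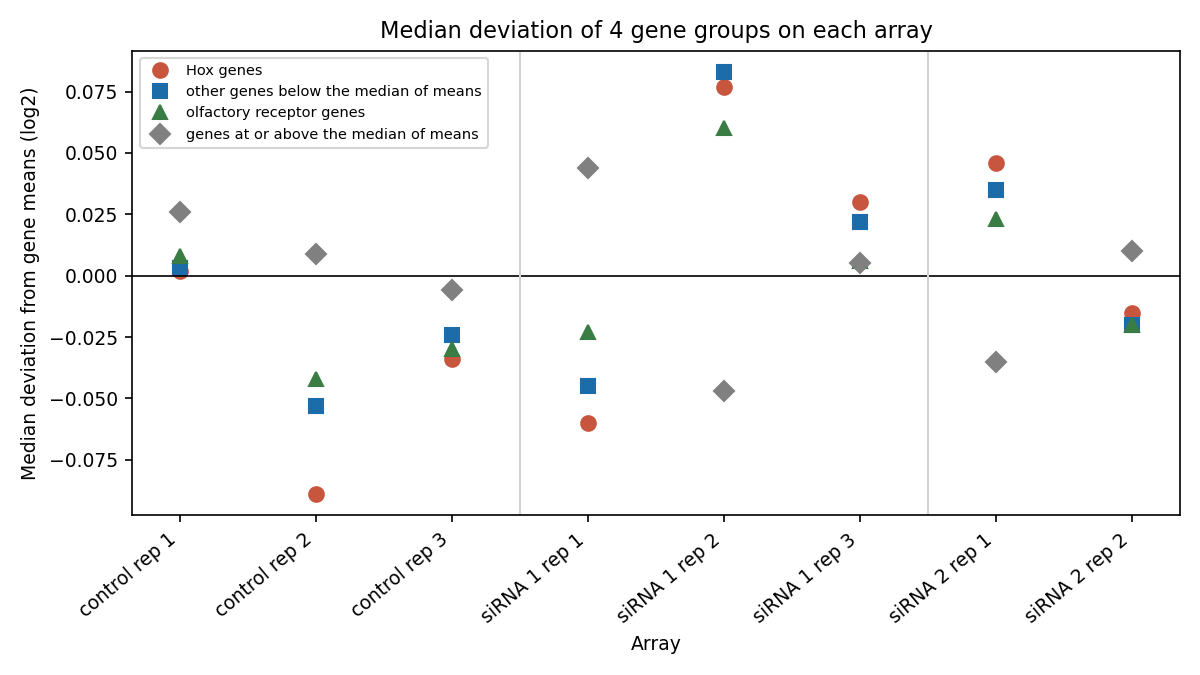
Median deviation (log2, y axis) of 4 groups of genes from their own means over 8 arrays, for each array (x axis): Hox genes, other genes below the median of means, olfactory receptor genes, and genes at or above the median of means. Hox genes and other dim genes are lowest on control replicate 2 (-0.089 and -0.053) and highest on siRNA 1 replicate 2 (0.077 and 0.083), while the brighter genes stand at -0.047 on that last array.

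**Figure D5:**
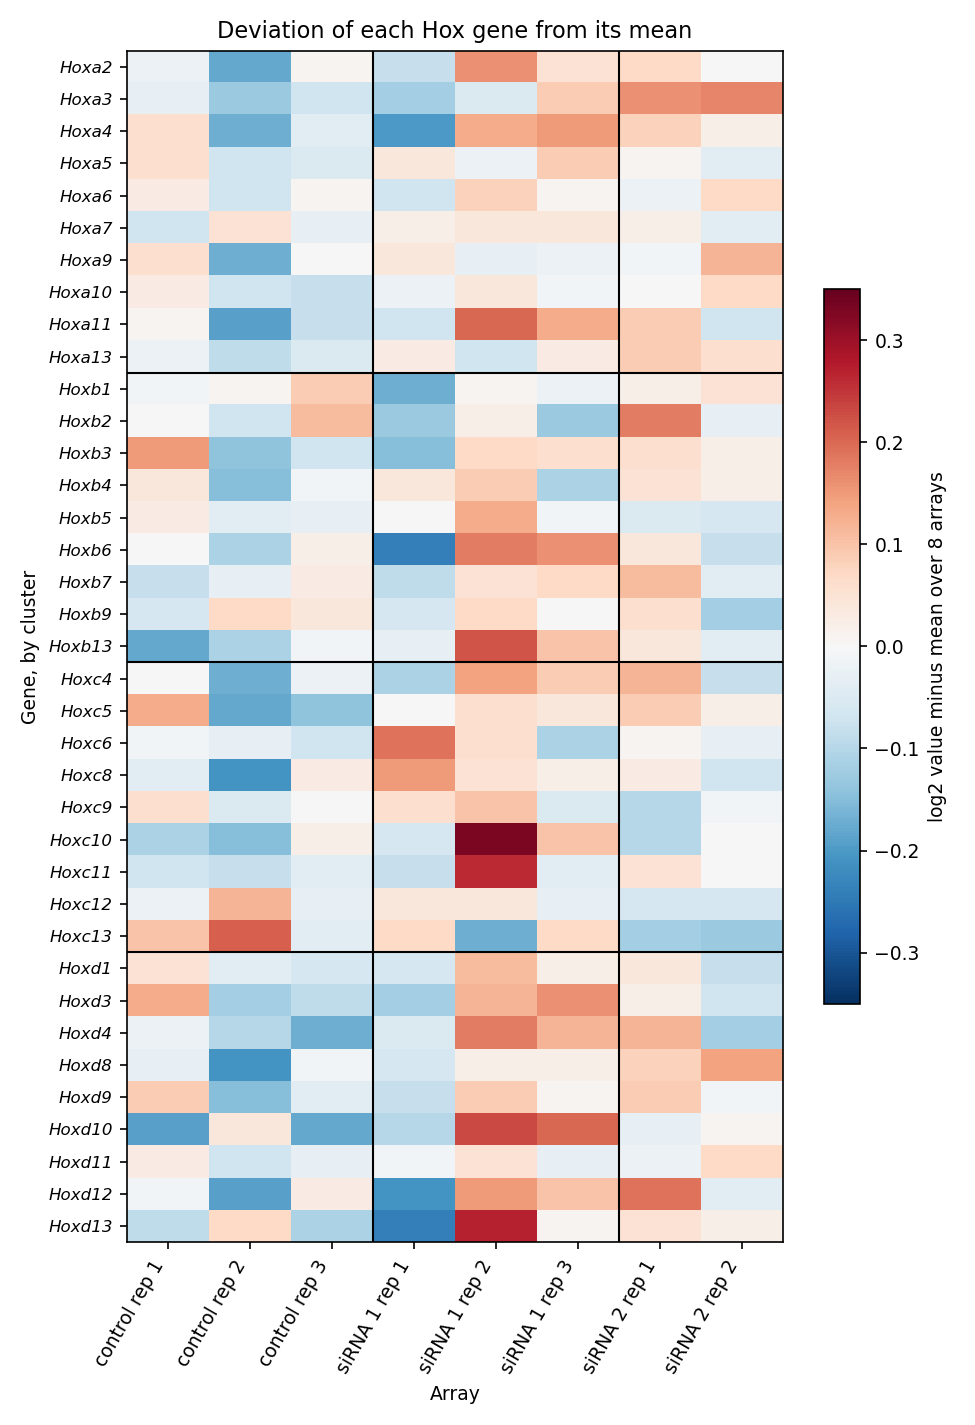
Deviation of each of the 37 Hox genes (rows, by cluster) from its mean over 8 arrays (log2, colour), with arrays as columns and lines between groups and clusters. The column of siRNA 1 replicate 2 is above the gene's mean for 32 genes and that of control replicate 2 for 7.

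Hoxa3 had the smallest unadjusted p. It read 6.28, 6.18 and 6.24 on the control arrays, 6.19, 6.26 and 6.40 with siRNA 1 and 6.47 and 6.48 with siRNA 2. The siRNA 2 arrays were above every other array, while siRNA 1 overlapped the controls. Its difference was 0.15 ± 0.06 (SE, limma unadjusted p = 0.0267, adjusted p = 0.769) for the average and 0.24 ± 0.07 (unadjusted p = 0.00636, limma adjusted p = 0.794) for siRNA 2, and over the alternatives the former stayed between 0.10 and 0.20. The RefSeq start printed above for Hoxa3 lies between the promoter windows of Hoxa6 and Hoxa7. Whether its probe set reads a transcript from that start is not given in the sources used here.

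Hoxd8, of the middle of cluster D, read 6.70, 6.52 and 6.72 on the control arrays, 6.67, 6.75 and 6.75 with siRNA 1 and 6.81 and 6.87 with siRNA 2. Both siRNA 2 arrays were above all controls, and control replicate 2 was the lowest of all. The difference was 0.14 ± 0.06 (SE, limma unadjusted p = 0.0432, adjusted p = 0.769), and 0.07 when control replicate 2 was dropped. Hoxb13, which acts at the tail end of the axis and in the prostate, read 7.19, 7.26 and 7.36, then 7.34, 7.59 and 7.47, then 7.41 and 7.33 in the same order of groups. Each siRNA group overlapped the controls. The difference was 0.15 ± 0.07 (SE, limma unadjusted p = 0.0482, adjusted p = 0.769).

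Hoxc13, a gene of hair and nail, was the one with the most negative difference. It read 7.59, 7.70 and 7.45 on the control arrays, 7.56, 7.32 and 7.56 with siRNA 1 and 7.37 and 7.36 with siRNA 2, so both siRNA 2 arrays were below all controls and siRNA 1 overlapped them. The difference was -0.16 ± 0.07 (SE, limma adjusted p = 0.769), and -0.10 when control replicate 2 was dropped. Hoxd10, which patterns lumbar levels and hindlimb motor neurons, read 6.99, 7.22 and 7.0, then 7.08, 7.41 and 7.38, then 7.15 and 7.19. Control replicate 2 lay within the siRNA values, and the difference was 0.16 ± 0.08 (SE, limma adjusted p = 0.769). Hoxa13, needed for digits, read 7.48, 7.41 and 7.45, then 7.53, 7.43 and 7.53, then 7.59 and 7.56, a difference of 0.09 ± 0.05 (SE, limma adjusted p = 0.772). Its siRNA 2 arrays were above all controls, and its start region was the richest in CpG of the Hox windows.

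With siRNA 1 alone 0 Hox genes passed the adjusted threshold (0% of all genes), and the smallest limma adjusted p was 0.870. Differences lay above 0 for 32 of the 37 genes and below for 5, with a median of 0.054 against 0.016 over all genes, of which 58.6% were higher, as were 73.2% of the other genes of low level. That lean was 22 of 37 genes and a median of 0.005 after the repeated quantile normalization and 23 genes and 0.019 with the covariate. It was 25 genes and 0.024 when siRNA 1 replicate 2 was dropped and 28 genes and 0.029 when control replicate 2 was. The median was 0.089 when control replicate 1 was dropped and 0.086 when siRNA 1 replicate 1 was. Unadjusted p-values under 0.05 belonged to Hoxb13, at 0.20 ± 0.07, and Hoxd10, at 0.22 ± 0.09 (SE), so to 2 higher and 0 lower genes. The shares of all genes were 3.03% higher, 2.3% lower and 5.33% in either direction. The 2 became 9 when siRNA 1 replicate 1 was dropped and 0 when its replicate 2 was. Dropping control replicate 2 or siRNA 1 replicate 3 left 1. Next came Hoxc10, a gene of lumbar levels like Hoxd10, at 0.21 ± 0.09, with 6.95, 6.91 and 7.08 on the control arrays, 7.0, 7.39 and 7.16 with siRNA 1 and 6.96 and 7.06 with siRNA 2. Its highest value was that of siRNA 1 replicate 2, without which the difference was 0.10. For 0 Hox genes did the 3 siRNA 1 arrays all lie above (6.21% of all genes) or all below (4.56%) the controls. Array weights gave siRNA 1 replicates 1 and 2 weights of 0.308 and 0.411 and replicate 3 a weight of 3.564. That was the one alternative that called Hox genes. It called 3 of 37, Hoxa11, Hoxd10 and Hoxd4, with a smallest adjusted p of 0.0389 by limma. The same fit called 1436 of all 19935 genes, so calls were not particular to the Hox genes.

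With siRNA 2 alone 0 Hox genes passed (0% of all genes), and the smallest limma adjusted p was 0.794. Here 31 genes lay above 0 and 6 below, with a median of 0.066 against 0.006 over all genes, of which 52.9% were higher, as were 66.4% of the other genes of low level. The lean was 24 of 37 genes and a median of 0.033 after the repeated quantile normalization and 26 genes and 0.021 with the covariate. It was 23 genes and 0.018 when siRNA 2 replicate 1 was dropped and 25 genes and 0.026 when control replicate 2 was. Unadjusted p-values under 0.05 belonged to 2 higher genes, Hoxa3 as above and Hoxd8 at 0.19 ± 0.07, and to 1 lower gene, Hoxc13 at -0.21 ± 0.09 (SE). The shares of all genes were 2.56% higher, 3.52% lower and 6.07% in either direction. Dropping either control replicate 2 or siRNA 2 replicate 2 left 1 of any direction. Both siRNA 2 arrays lay above all 3 controls for 4 genes, Hoxa3, Hoxa13, Hoxc11 and Hoxd8, where 13.4% of all genes did so, and below all 3 for Hoxb5, Hoxc12 and Hoxc13, where 15.9% did. The siRNA 1 and siRNA 2 comparisons share the 3 control arrays, so their values are not independent.

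The siRNAs were set against each other directly, which uses no control array. Of the 37 genes 17 were higher with siRNA 2 and 20 lower, with a median of -0.023 against -0.011 over all genes, and 0 passed the adjusted threshold (0% of all genes, limma adjusted p of 1 for every Hox gene). An unadjusted p under 0.05 belonged to 1 gene, Hoxa3, higher by 0.19 ± 0.07 (SE). The shares of all genes were 1.45% higher, 3.02% lower and 4.48% in either direction. The count was 3 when replicate 1 or replicate 2 of siRNA 1 was dropped, and 0 when siRNA 2 replicate 1 was. The split turned to 23 higher with a median of 0.036 when siRNA 1 replicate 2 was dropped, and to 21 higher with 0.007 when siRNA 2 replicate 2 was. It was 11 higher with -0.054 when siRNA 1 replicate 1 was dropped, 12 higher with -0.052 when siRNA 2 replicate 1 was, and 18 higher with -0.004 when siRNA 1 replicate 3 was. Of all genes 44.5% were higher with siRNA 2. By cluster 6 of 10 genes were higher in A, 5 of 9 in B, 1 of 9 in C and 5 of 9 in D, with medians of 0.021, 0.028, -0.075 and 0.019, and no difference between clusters was tested. In cluster C 3 genes were higher when siRNA 1 replicate 2 was dropped and 3, with a median of -0.043, when siRNA 2 replicate 2 was. Hoxc10 was lower by the most, at -0.18 ± 0.11 (SE), and at -0.08 when siRNA 1 replicate 2 was dropped. Hoxb2, a hindbrain gene, was higher by 0.15 ± 0.09, with 7.34, 7.49 and 7.34 with siRNA 1 and 7.65 and 7.44 with siRNA 2 beside 7.47, 7.40 and 7.58 on the control arrays, so the groups overlapped. That value became 0.04 when siRNA 2 replicate 1 was dropped and 0.26 when its replicate 2 was. The siRNA 2 arrays were above all siRNA 1 arrays for 4 genes, Hoxa3, Hoxa13, Hoxb1 and Hoxd8 (5.54% of all genes), and below them for Hoxa7, Hoxb5 and Hoxc12 (9.89%).

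The regulators of the clusters gave 0 calls as well in the comparison of both siRNAs with control, where limma's unadjusted p was under 0.05 for 6.31% of all genes. Of 8 measured Hox cofactors 7 were lower and 1 higher (2 higher after the repeated quantile normalization), with a median of -0.047. Meis2, a partner of Hox proteins, read 8.79, 8.84 and 8.88 on the control arrays, 8.72, 8.61 and 8.50 with siRNA 1 and 8.62 and 8.72 with siRNA 2, with all 5 siRNA arrays below all controls and a difference of -0.19 ± 0.06 (SE, limma unadjusted p = 0.00944, adjusted p = 0.769). Meis1 was at -0.07 ± 0.06 and Pknox2 at -0.06 ± 0.06.

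Of 18 retinoic acid genes 11 were higher and 7 lower, a split that became 5 higher with the lower-quartile covariate, and 3 had an unadjusted p under 0.05. Stra8, a retinoic acid target known for starting meiosis, read 7.41, 7.44 and 7.30 on the control arrays, 7.23, 7.25 and 7.24 with siRNA 1 and 7.09 and 7.10 with siRNA 2. All 5 siRNA arrays were below all controls, at -0.22 ± 0.05 (SE, limma unadjusted p = 0.00138, adjusted p = 0.743). The receptor gene Rxrg was at -0.18 ± 0.07, also with all 5 siRNA arrays below all controls. Aldh1a2, which makes retinoic acid, was at -0.13 ± 0.05.

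The Polycomb genes split 9 higher and 8 lower with a median of 0.004, and 0 had an unadjusted p under 0.05. Their smallest p-values belonged to Ring1 at 0.09 ± 0.05, Mtf2 at -0.08 ± 0.05 and Aebp2 at 0.07 ± 0.05 (SE). Of the 9 Trithorax-type genes 3 were higher and 6 lower (5 higher after the repeated quantile normalization). Kdm6a, a histone demethylase that removes the Polycomb mark, read 11.89, 11.84 and 11.83 on the control arrays, 11.75, 11.69 and 11.61 with siRNA 1 and 11.68 and 11.77 with siRNA 2. It was lower on all 5 siRNA arrays, at -0.15 ± 0.05 (SE, limma unadjusted p = 0.0166, adjusted p = 0.769). Kdm6b was at -0.09 ± 0.06 and Kmt2b at 0.06 ± 0.06.

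Of the ParaHox and Evx genes 7 of 8 were higher (4 after the repeated quantile normalization), with a median of 0.042, led by Pdx1 at 0.15 ± 0.07 and Gsx1 at 0.08 ± 0.06, and with Cdx1 at 0.06 ± 0.06 (SE). The noncoding transcripts split 6 higher and 4 lower with a median of 0.054, with Mir615 at 0.19 ± 0.10, Haglr at 0.10 ± 0.07 and Hoxd3os1 at 0.09 ± 0.08. Among the flanking genes 2 of 24 had an unadjusted p under 0.05, Smug1 at 0.14 and Lnpk at -0.21.

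Markers of other cell types that a stem cell culture can hold were read on the same arrays. Fewer cells of a type and less RNA per cell cannot be told apart in bulk RNA. Of 14 fibroblast genes 10 were higher with siRNA, against 4 that were lower, with a median of 0.103. Of these genes 4 had an unadjusted p under 0.05 by limma, where 6.31% of all genes did. Col1a1 at 0.14 ± 0.05, Col1a2 at 0.17 ± 0.06 and Acta2 at 0.22 ± 0.09 were higher and Twist1, at -0.14 ± 0.05 (SE), was lower. Col1a1 and Col1a2 were above all controls on all 5 siRNA arrays, as were 2.49% of all genes. The mean of the list ran from 8.70 to 8.81 on the control arrays. It ran from 8.75 to 8.97 with siRNA 1 and from 8.80 to 8.81 with siRNA 2. On the control arrays 3 of the 14 genes were below the median gene, 1 of them (Lum, at 5.93) below the lower quartile. Acta2, at 11.02, was above the upper quartile. The median of the list was 0.028 when siRNA 1 replicate 1 was dropped and 0.064 when control replicate 2 was. Of 11 genes of early differentiated cells 7 had a positive difference and 4 a negative one, with a median of 0.008, and their array means ran from 8.81 to 8.88, 8.78 to 8.86 and 8.86 to 8.94. Over the alternatives 5 to 10 of them were higher and the median ran from -0.029 to 0.062, with the lowest when siRNA 2 replicate 2 was dropped. Of 5 macrophage genes 1 was higher, and 4 with the lower-quartile covariate or without control replicate 2, while the median ran from -0.14 to 0.098 over the alternatives. Their array means ran from 8.30 to 8.65, 8.37 to 8.77 and 8.43 to 8.51. On the control arrays 3 of these 5 were below the median gene, Cd68 stood at 10.10 and Lyz2, at 10.50, was above the upper quartile. Lyz2 read 10.63, 10.73 and 10.14 on the control arrays, 11.12, 10.14 and 10.21 with siRNA 1 and 10.29 and 10.47 with siRNA 2. Of 10 pluripotency genes 5 were higher with siRNA and 5 lower, with a median of -0.005, and 1 had an unadjusted p under 0.05. That was Dppa3, at 0.32 ± 0.08 (SE, limma unadjusted p = 0.00352, adjusted p = 0.769), which was above all controls on all 5 siRNA arrays. The part of these cells in the Hox values was not tested.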

How the data were processed

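Each total RNA sample was measured on an Affymetrix gene array of its own. The deposited values are log2 probe-set summaries made by the authors with RMA, per the submitters' processing notes, with version and software not given in the sources used here. Because RMA normalizes between arrays, shifts common to most genes are hidden. Of 28815 probe sets 21780 had 1 gene symbol, 1605 several and 5430 none in the platform annotation used, and the probe set with the highest mean over 8 arrays stood for each of 19935 genes. Groups came from the sample titles.

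Limma 3.58.1 (R 4.3.3; lmFit, eBayes) fitted a mean per group to all genes on all 8 arrays. P-values are two-sided, with Benjamini-Hochberg adjustment over all genes, and a gene was called at an adjusted p under 0.05. The fit was run on simulated data with independent noise for each gene. That noise lacks the shifts that many genes share on an array, so the simulation does not bear on them. Other scalings, filters, probe-set rules, array weights and left-out arrays were tried. The number of arrays limits the precision. Tables were made with pandas 2.3.3 and numpy 2.4.6 under Python 3.11.15, and figures with matplotlib 3.10.9. The members and gene lists were chosen with earlier results of these data known. Named Hox genes were the 6 of smallest unadjusted p in the average comparison, the 3 smallest in each other comparison, those at or above the median gene, and the highest and lowest of each cluster. The 3 smallest p-values of each list were also named, and other genes were named after their values were seen. Motifs and CpG were counted in RefSeq promoter windows (GRCm38.p6).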

Additional observations from a re-analysis of the deposited data

How the results depend on the processing

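Under the alternatives 0 Hox genes were called in each of the 4 comparisons, with the exception of array weights. That fit called 3 of 37 (Hoxa11, Hoxd10 and Hoxd4) for siRNA 1 against control. It also called many other genes, as counted above for siRNA 1, and the cause was not tested. Leaving out each array in turn called 0 Hox genes each time. The count of Hox genes below the median gene on the control arrays, 34, became 33 with quartiles over all probe sets and 35 over all 8 arrays, and 34 to 35 when a control array was left out. Under a filter at the lower quartile 24 Hox genes remained and at the median 2, so those fits say little of the group. Of the 15 Hox differences named for their small p-values none changed sign. Other named differences were not followed singly. The median difference between siRNA 2 and siRNA 1 ran from -0.054 to 0.036, above 0 under 3 of 20 alternatives.

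The sample titles do not say whether replicate numbers pair the arrays. Same-numbered arrays had correlations of deviations from their group means from -0.547 to 0.219. These cannot decide it, because deviations from a group mean cancel out within the group. With the replicate block 0 Hox genes were called in each comparison, and 1, 2, 2 and 1 had an unadjusted p under 0.05, against 3, 2, 3 and 1 without it. A fit to only the groups compared was not run for the average of both siRNAs, which uses all groups. The groups hold 2 or 3 arrays, and signal over background is unknown because the table has no background or detection values.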
